A study of Gallus gallus with 8 samples.

Results

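A total of 155 solute carrier genes were followed across the 8 arrays of the series. They were chosen by name and level. Every gene on the Affymetrix GeneChip Chicken Genome array whose symbol has the form SLC, family number, A and member number was taken, with its brightest probe set, and it was kept when that probe set had a mean intensity of 50 or more in at least 1 of the 4 groups. The annotation of the array gives such a symbol to 249 genes on 569 probe sets, and the 155 members stand among 13009 genes with a symbol of their own. Some probe sets in the study's tables of carriers have no symbol in the annotation, or one of another form such as SLC35F2. These are not among the 249, although some of them pass the rule for calls used below. Otic ectoderm and the ectoderm lateral to it were dissected fresh from chick embryos of Hamburger and Hamilton stage 10. Trigeminal ectoderm was taken from stage 8 embryos and grown for 18 h in collagen gels in DMEM/F12 medium with N2 supplements, either with 50 ng/ml FGF2 or with no added FGF2. Each group had 2 arrays, and each array received RNA of about 80 pooled pieces of ectoderm, separated with enzyme and needles and amplified in 2 cycles. The labels name no transgene or mutation.

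Solute carriers are membrane proteins that move sugars, amino acids, organic acids, inorganic ions, metals, nucleosides and vitamins across the cell surface, and in the SLC25 family across the inner membrane of mitochondria. Facilitative carriers let a solute run down its gradient, whereas secondary active carriers couple it to sodium, protons or a second solute moving the other way. In epithelia such as embryonic ectoderm they feed growing cells, and in the later inner ear, which the otic placode forms, ion carriers help to set the fluid composition on which hearing depends.

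Medians of the arrays over all probe sets lay between 25.6 and 31.7 intensity units, and between 2.30% and 2.90% of the values of an array were under 1 and were set to 1. Over all probe sets the otic arrays stood above the lateral arrays by a median log2 difference of 0.19, which quantile normalization reduced to 0.012, and every otic minus lateral value below contains this shift. The tissues matched their labels in part. By the rule for calls given below, 4.94% of all genes were higher and 2.65% lower in otic than in lateral ectoderm. With FGF2 these shares were 2.16% and 1.51%, and in culture 5.37% and 4.47%. A total of 11 of 13 otic placode markers on the array were higher in otic than in lateral ectoderm and none was lower. Of the same 13, 4 were higher and 1 (GBX2) lower in culture, and 4 were higher with FGF2. The markers higher in otic ectoderm include FGF8, at 39.1 and 117.8 in otic and 2.6 and 1.7 in lateral ectoderm. By in situ hybridization the study found this gene mostly missing from the placode and strong in the ectoderm beside it. Its higher otic values are therefore no evidence that the pieces were otic placode. The study also states that false positives from tissue around the placode are likely, because clean dissection is difficult. In trigeminal ectoderm without FGF2, SOHO1 stood at 3410 and 3247 and SOX10 at 1910 and 3131. Their otic values were 107 and 340 and 50.5 and 117, so these 2 markers were not particular to otic ectoderm. Of 10 markers of surface ectoderm and epithelium, 3 (GRHL3, KRT14 and DSP) were lower in otic than in lateral ectoderm, 1 (KRT7) was lower in culture and none was higher in any comparison, while EPCAM stood at 8326 to 11290.3, CDH1 at 1119 to 2495 and ESRP1 at 23.5 to 76.8 over the 8 arrays. Of 8 trigeminal placode markers, 4 were higher in culture (PAX3, NEUROG1, NEUROG2 and NEUROD1), 3 higher with FGF2 and 2 higher in otic ectoderm (EYA2 and ISL1), and none was lower. Without FGF2, cultures overlapped fresh arrays for NEUROG1 (17.5 and 12.7 against up to 18) and NEUROG2 (11.7 and 44.3 against up to 12.1). The same held for NEUROD1 (1.8 and 3.6 against up to 9.2). With FGF2 these 3 genes stood at 24 to 83.5. PAX3, which marks the ophthalmic trigeminal placode, stood between 13.7 and 34.4 in the cultured arrays that the labels call trigeminal, around the array medians. Markers of other cell types moved with culture. The summed intensity of 10 endothelial markers was 2406 to 6185 in the 4 fresh arrays and 298 to 601 in the 4 cultured arrays, with 8 of the 10 lower and CDH5, KDR and LMO2 among them. Endoderm (4 of 6 lower), mesoderm and mesenchyme (5 of 10 lower) and heart field markers (3 of 7 lower) were also lower in culture, whereas neural tube (4 of 9 higher) and neural crest markers (3 of 7 higher) were higher. Between the fresh tissues, neural tube (2 of 9), neural crest (2 of 7) and heart field markers (2 of 7) were in part higher in otic ectoderm, endothelial (3 of 10) and red blood cell markers (2 of 4) in part lower, and mesoderm markers split (1 higher and 1 lower of 10). The lists share genes, so these counts are not separate. The neural crest genes higher in otic ectoderm were TFAP2B and SOX10, which is also an otic marker. Those of the heart field were NKX2-5 and ISL1, which is also a trigeminal marker. EYA2 is in the otic and trigeminal lists, and TWIST1 in those of neural crest and mesoderm. Neural tube sums were 3609 and 6516 in otic and 1553 and 2014 in lateral ectoderm, and endothelial sums 2406 and 2756 in otic and 4695 and 6185 in lateral ectoderm. In the cultures endothelial sums were 356 and 298 without FGF2 and 528 and 601 with FGF2. The part of these other cells in the carrier values was not tested, and in pooled tissue fewer cells of a type and less RNA per cell cannot be told apart.

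**Figure D1:**
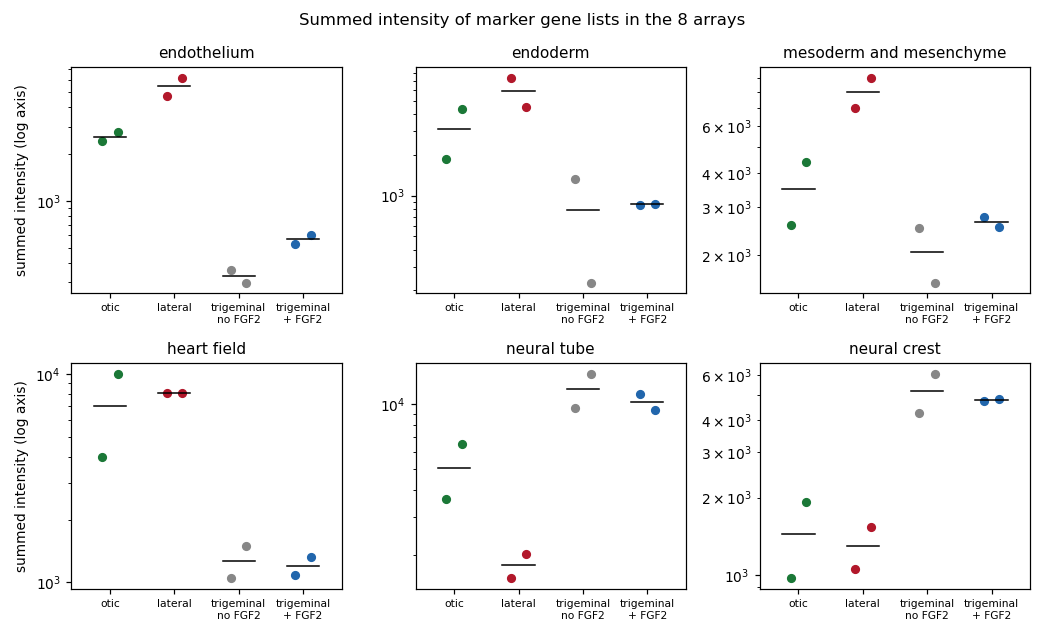
Summed intensity (log axis, arbitrary units) of 6 lists of marker genes on each of the 8 arrays, with 1 point per array and a line at the mean of the 2 arrays of a group. Endothelial sums lie between 2406 and 6185 on the fresh arrays and between 298 and 601 on the cultured arrays, and neural crest sums are higher on the cultured arrays.

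Of the 155 members, 107 had a mean of 50 or more in every group, or 69% against 81.3% of the 8946 genes of any kind that passed the same limit in at least 1 group. A further 29 members did so in 2 or 3 groups, and 19 in a single group, of which 7 were otic, 5 lateral, 3 trigeminal without FGF2 and 4 trigeminal with FGF2. The highest group mean of a member was a median of 1.77 times its lowest, against 1.59 for those 8946 genes. A total of 38 members differed by less than 1.5-fold between their highest and lowest groups, 50 by 1.5- to 2-fold, 48 by 2- to 4-fold and 19 by 4-fold or more. Between the 2 arrays of a group the members differed by a median of 1.34-fold in otic, 1.31-fold in lateral, 1.26-fold in untreated and 1.17-fold in FGF2-treated ectoderm. Just inside the limit were SLC5A10, with a highest group mean of 50.1, and SLC2A11 with 50.55, and just outside it were the zinc carrier gene SLC30A7 with 49.8 and SLC22A23 with 48.8. A limit of 25 would have kept 204 carriers and a limit of 100 would have kept 113.

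Groups were compared with limma over all 38439 probe sets in 3 ways. Otic minus lateral ectoderm asks which carriers mark the tissue that forms the ear, and FGF2 minus no FGF2 asks which respond to the growth factor. The 4 cultured minus the 4 fresh arrays compare tissue fed by a defined medium with tissue taken from the embryo, and here medium, culture, stage and region of origin cannot be told apart. A gene was called higher or lower when its fold change was above 2 with an unadjusted p under 0.05. Lack of overlap between groups is common with 2 arrays each. Of 249 carriers, 63 were higher and 50 lower without overlap in otic ectoderm, 80 and 38 with FGF2, and 18 and 17 in culture. The same counts were not made over all genes, so these say nothing particular to carriers. Lack of overlap was also a condition for choosing most called members named below, so for them it is no separate evidence. Because the level limit keeps genes that are high in only 1 group, calls were counted over all 249 carriers and set against all 13009 genes.

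In otic ectoderm 12 carriers (8 of them members) were called higher and 8 (6 members) lower, 4.82% and 3.21% of the carriers, where 4.94% of all genes were called higher and 2.65% lower. With FGF2, 6 carriers (5 members) were called higher and 3 (2 members) lower, or 2.41% and 1.20%, against 2.16% and 1.51% of all genes. In the cultured arrays 15 carriers (11 members) were called higher and 14 (14 members) lower, or 6.02% and 5.62%, against 5.37% and 4.47% of all genes. These shares of all carriers are near those of all genes in each comparison. The members belong with the 8946 genes at the level limit, and the limit itself favors genes that differ. In otic ectoderm 5.16% of members were called higher and 3.87% lower, against 4.72% and 2.27% of those genes. With FGF2 the shares were 3.23% and 1.29%, against 1.65% and 0.66%. In culture they were 7.10% and 9.03%, against 5.73% and 4.73%. The members' share was thus higher in every comparison and direction. The counts of members are small, and whether these shares differ beyond chance was not tested. For otic minus lateral ectoderm the split over all carriers depends on the scale. Scaled to equal quantiles or equal medians, the arrays gave 6 higher and 13 lower. The FGF2 split became 3 and 3 with equal quantiles and 4 and 3 with equal medians. Members had a median log2 difference of 0.07 in the otic, 0.17 in the FGF2 and −0.08 in the culture comparison, against 0.19, 0.12 and 0.02 over all genes.

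No carrier passed an adjusted p under 0.05 in the otic or FGF2 comparisons, where 0 of 13009 genes did, and the smallest adjusted p of any probe set was 0.20 and 0.28. At an unadjusted p under 0.05 there were 23 carriers in the otic comparison (9.24%, against 8.19% of all genes) and 11 in the FGF2 comparison (4.42%, against 3.97%). In the culture comparison 5 carriers passed it with limma. SLC39A12, SLC16A3 and SLC16A8 were higher (0.523% of all genes passed in that direction and 0.693% of those at the level limit) and SLC5A1 and SLC12A3 lower (0.338% and 0.458%). These 5 calls are not stable. None of the 5 passed with the replicate number as a block or with any 1 of the 8 arrays left out, whereas 19 carriers passed with a prior variance that follows the intensity and 21 when 32 was added to each intensity (an offset of 32). In an F test over the 4 groups 37 of 249 carriers had an unadjusted p under 0.05, or 14.9% against 11.6% of all genes, and 0 had an adjusted p under 0.05, where 0.0461% of all genes did. Of the members 32 had an unadjusted p under 0.05, or 20.6% against 12% of the genes at the level limit. Several carriers described below (SLC13A3, SLC6A6, SLC29A1, SLC44A5, SLC1A6, SLC39A12, SLC27A4 and SLC16A12, each in the probe set shown) stand in the study's own tables, which were drawn from these arrays, so their direction there is not independent evidence.

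**Figure D2:**
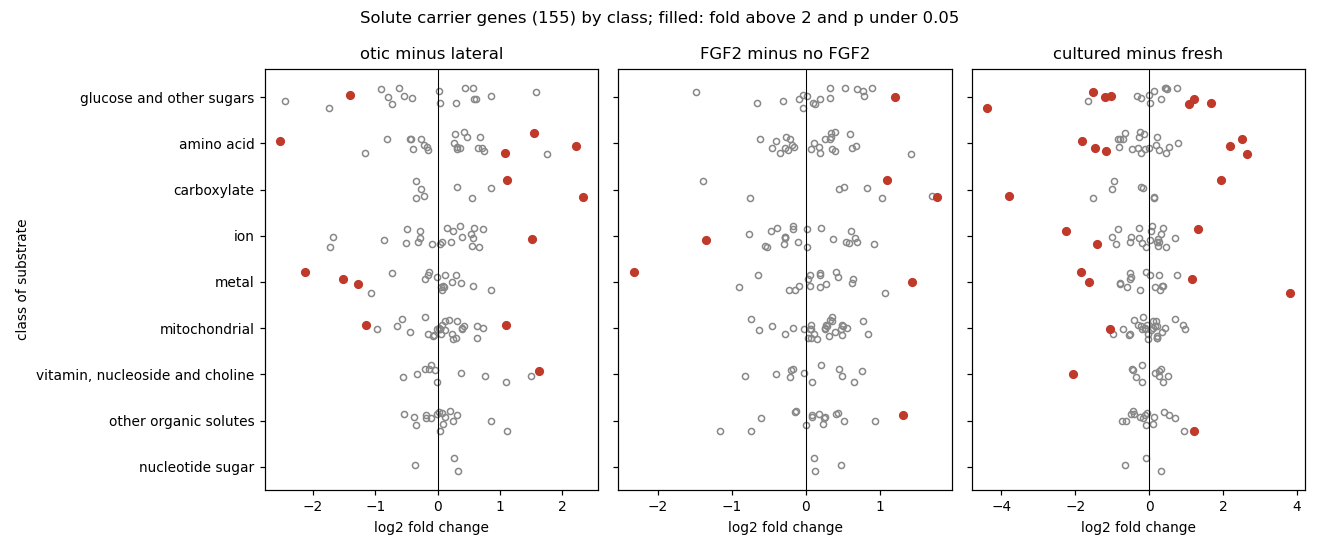
Log2 fold change (linear axis) of the 155 members in the 3 comparisons, 1 point per gene, arranged by class of substrate. Filled points passed a fold above 2 and an unadjusted p under 0.05, which were 8 higher and 6 lower in otic ectoderm, 5 higher and 2 lower with FGF2, and 11 higher and 14 lower in culture.

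Of 24 sugar carriers on the array, 3 were called higher and 4 lower in culture, where 5.37% and 4.47% of all genes were. With FGF2, 2 were higher and 0 lower, against 2.16% and 1.51% of all genes, and in otic ectoderm 0 were higher and 1 lower, against 4.94% and 2.65%. All of these calls but 1 with FGF2 were in the 18 sugar carriers that are members. SLC5A1, which encodes the sodium-glucose cotransporter of absorptive epithelia, had intensities of 211 and 114 in otic ectoderm, 339.6 and 796 in lateral ectoderm, 28.4 and 6.7 in trigeminal ectoderm without FGF2 and 10.9 and 16.5 with FGF2. All 4 fresh values lay above all 4 cultured values, and the lateral pair was above the otic pair. The culture comparison gave a log2 difference of −4.38 (SE 0.57, adjusted p = 0.047), and −2.78 with an offset of 32, since the cultured values lie at or under the array medians. Adjusted p ranged from 0.0027 to 0.19 over its 14 alternatives. Both further probe sets of the gene were also lower in culture, by −4.97 and −2.52. The otic minus lateral difference of −1.74 was not called (adjusted p = 0.65). Without lateral replicate 1 it was −2.36 and without lateral replicate 2 −1.13.

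SLC2A1, the facilitative glucose carrier GLUT1 of most growing cells, showed another pattern. It stood at 714 and 1222 in otic ectoderm, 1234 and 1655 in lateral ectoderm, 1382 and 1461 in trigeminal ectoderm without FGF2 and 2225 and 3161 with FGF2. The 2 arrays with FGF2 were above the 6 others, but the difference from untreated cultures was 0.90 (SE 0.42, adjusted p = 1), under the 2-fold limit, and that between cultured and fresh arrays was 0.75. SLC2A14, named for a close relative of GLUT3 in human, went the other way in culture, from 1507 and 989.7 in otic and 566 and 801 in lateral ectoderm to 369.9 and 311 without FGF2 and 595 and 581 with it, a log2 difference of −1.02 (SE 0.27, adjusted p = 0.2). Its FGF2 arrays overlapped the lateral range, so it was named here after its values were seen.

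SLC45A4, of a family named for sucrose transport in plants, was higher in culture, at 192 and 145 in otic ectoderm, 132 and 140.2 in lateral ectoderm, 514 and 706 in trigeminal ectoderm without FGF2 and 288 and 507 with FGF2. Cultured and fresh values did not overlap, with a log2 difference of 1.67 (SE 0.30, adjusted p = 0.085). SLC2A12 and SLC2A11, which encode GLUT12 and GLUT11, were called higher in culture with differences of 1.21 and 1.08. Both stood at dim levels in fresh tissue, 19.2 to 48.3 and 11.6 to 37.1, and with an offset of 32 they fell under the limit (0.68 and 0.52). The SLC2A12 call was lost without otic replicate 1 (0.995). That of SLC2A11 was lost without otic replicate 1 (0.77), lateral replicate 2 (0.91), untreated replicate 2 (0.97) and either FGF2 array (1.12 and 1.03).

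The liver-type glucose carrier gene SLC2A2 was dim throughout, at 39.4 and 25.3 in otic ectoderm, 54.4 and 55 in lateral ectoderm, 17.5 and 8.2 in trigeminal ectoderm without FGF2 and 34 and 22.7 with FGF2. Its values were lowest in untreated cultures. It was called lower in culture (−1.19) and higher with FGF2 (1.21), and neither call held with an offset of 32 (−0.52 and 0.43). The culture call was lost without FGF2 replicate 2 (−1.04) or untreated replicate 2 (−0.91). The FGF2 call was lost without 7 of the 8 arrays, with differences from 0.67 without untreated replicate 2 to 1.51 without FGF2 replicate 2, and it was kept only without untreated replicate 1. SLC5A10, a sodium-coupled carrier of mannose and fructose in mammals, was dim, at 45.6 and 54.6 in otic and 7.5 and 37 in lateral ectoderm. In trigeminal ectoderm it was at 30.7 and 9.2 without FGF2 and 6.8 and 5.3 with FGF2. It was just called lower in culture (−1.52), but not with an offset of 32 (−0.57) or after quantile normalization (−1.51). The culture call was also lost without any array other than lateral replicate 1 and untreated replicate 1, and the difference was −0.95 without lateral replicate 2.

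In fresh tissue the sugar-phosphate exchanger gene SLC37A1 was lower in the otic arrays, at 196 and 126, than in the lateral arrays, at 392 and 443. The pairs did not overlap and gave a log2 difference of −1.41 (SE 0.42, adjusted p = 0.45). The cultured arrays stood between, at 338 and 199 and 254 and 250.4. The call was lost without otic replicate 2 (−1.09) or lateral replicate 2 (−1.32). SLC2A8, which encodes the intracellular glucose carrier GLUT8, differed little, from 766 to 1006 over the 8 arrays.

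Of 44 amino acid carriers on the array, 3 were called higher and 2 lower in otic ectoderm (4.94% and 2.65% of all genes), 0 higher and 1 lower with FGF2 (2.16% and 1.51%), and 4 higher and 3 lower in culture (5.37% and 4.47%). The 25 members among them held 3 and 1 of the otic calls, 0 of the FGF2 calls and 3 and 3 of the culture calls. The call with FGF2 was SLC38A4, a system A carrier that is no member, at 10.8 and 4.9 without and 2.2 and 1.7 with FGF2 (−1.91), all under the array medians, and it was also called lower in otic ectoderm (−2.93). With an offset of 32 these differences were −0.23 and −0.48. SLC6A6 encodes the taurine carrier. Its intensities were 107 and 66.1 in otic ectoderm, 17.1 and 19.2 in lateral ectoderm, 123 and 159 in trigeminal ectoderm without FGF2 and 182 and 278 with FGF2. Lateral ectoderm was the low group, and all 6 other arrays lay above it with no overlap. It was higher in otic than lateral ectoderm by a log2 difference of 2.22 (SE 0.42, adjusted p = 0.25) and higher in culture by a log2 difference of 2.18 (SE 0.30, adjusted p = 0.05). A second probe set at the level limit had the same sign in culture, and a dim one the opposite.

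The glycine carrier gene SLC6A9 and the glutamate carrier gene SLC1A6 were called higher in culture. SLC6A9, the glycine carrier GLYT1, was at 17.1 and 64.4 in otic ectoderm, 48.7 and 32.5 in lateral ectoderm, 199.8 and 183 in trigeminal ectoderm without FGF2 and 244 and 213 with FGF2. The 4 cultured values were close together and all above the fresh ones, with a log2 difference of 2.52 (SE 0.46, adjusted p = 0.088). SLC1A6, a glutamate carrier best known from Purkinje cells of the cerebellum, was at 53.3 and 23.9 in otic ectoderm, 27.1 and 4.1 in lateral ectoderm, 76.8 and 72.1 in trigeminal ectoderm without FGF2 and 184 and 216 with FGF2. Cultured arrays were above fresh arrays (2.65), and with FGF2 the pair was above the untreated pair by 1.42, which was not called (adjusted p = 1). Lateral replicate 2 stood at 4.1, and the culture difference was 1.97 without it and 3.33 without lateral replicate 1. Not all carriers of these substrates did so. The glutamate carrier genes SLC1A3, SLC1A1 and SLC1A2 had culture differences of −0.79, −0.995 and 0.18 and the glycine carrier gene SLC6A5 0.08. SLC1A7, another glutamate carrier gene, went with SLC1A6 by 1.35, at 4.4 to 19.2 in fresh and 7.6 to 37.5 in cultured arrays. None of these genes was called, and all but SLC1A3 lay under the level limit.

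SLC16A10 and SLC7A5 were called lower in culture. SLC16A10, which carries aromatic amino acids, was at 2611 and 2649 in otic ectoderm, 1476 and 1917 in lateral ectoderm, 587 and 642 in trigeminal ectoderm without FGF2 and 885 and 1006 with FGF2. Fresh and cultured ranges did not overlap, and within each pair of tissues the otic and FGF2 arrays were the higher ones. The culture difference was a log2 difference of −1.47 (SE 0.24, adjusted p = 0.069), and its 4 further probe sets at the level limit gave −1.73 to −2.75. SLC7A5, the light chain of the LAT1 carrier of leucine and other large neutral amino acids, was at 1017 and 1006 in otic ectoderm, 702 and 516 in lateral ectoderm, 272 and 332 in trigeminal ectoderm without FGF2 and 362 and 435 with FGF2. It was lower in culture, again with no overlap, by a log2 difference of −1.18 (SE 0.25, adjusted p = 0.12), and a second bright probe set gave −1.33. SLC7A6, the related y+LAT2 light chain, was at 822 to 1199 in fresh and 432 to 579 in cultured arrays, a log2 difference of −0.83 that stayed under the 2-fold limit.

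SLC3A1 encodes the heavy chain that brings the cystine and dibasic amino acid carrier to the membrane. Its values were 35.5 and 76.6 in otic ectoderm, 374 and 241 in lateral ectoderm, 60.5 and 28 in trigeminal ectoderm without FGF2 and 28.7 and 34 with FGF2. Lateral ectoderm stood above all 6 other arrays. The otic minus lateral comparison gave a log2 difference of −2.53 (SE 0.57, adjusted p = 0.31) and the culture comparison a log2 difference of −1.80 (SE 0.40, adjusted p = 0.14), although the otic and cultured ranges overlap. No further probe set of SLC3A1 is on the array.

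System A carrier genes were led by SLC38A1, a sodium-coupled glutamine carrier, at 3779.8 and 5213 in otic ectoderm, 1507 and 2940.5 in lateral ectoderm, 3501 and 4401 in trigeminal ectoderm without FGF2 and 4472 and 4543 with FGF2. Lateral replicate 1 was the lowest array. The otic call (1.08) was lost after quantile normalization (0.89) or without any 1 array other than lateral replicate 2, with 0.59 without lateral replicate 1, 0.84 without otic replicate 2 and 1.31 without otic replicate 1. SLC38A6, an orphan member of the same family, was at 363 and 454 in otic ectoderm and between 122 and 212 on the other 6 arrays, a log2 difference of 1.54 (SE 0.39, adjusted p = 0.38), and that call held under every alternative tried. SLC38A10 stood between 917 and 2058 on all arrays with no call, and the cationic carrier gene SLC7A3 between 1111 and 1631. Of 25 listed genes of the ATF4 program, which raises amino acid carriers in starved cells, 17 are on the array. In culture 1 was called higher (STC2) and 1 lower (ATF3), where 5.37% and 4.47% of all genes were. The median log2 difference of the 17 was 0.13, and that of the asparagine synthetase gene ASNS was −0.26. Whether amino acid supply took part in the carrier differences was not tested.

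**Figure D3:**
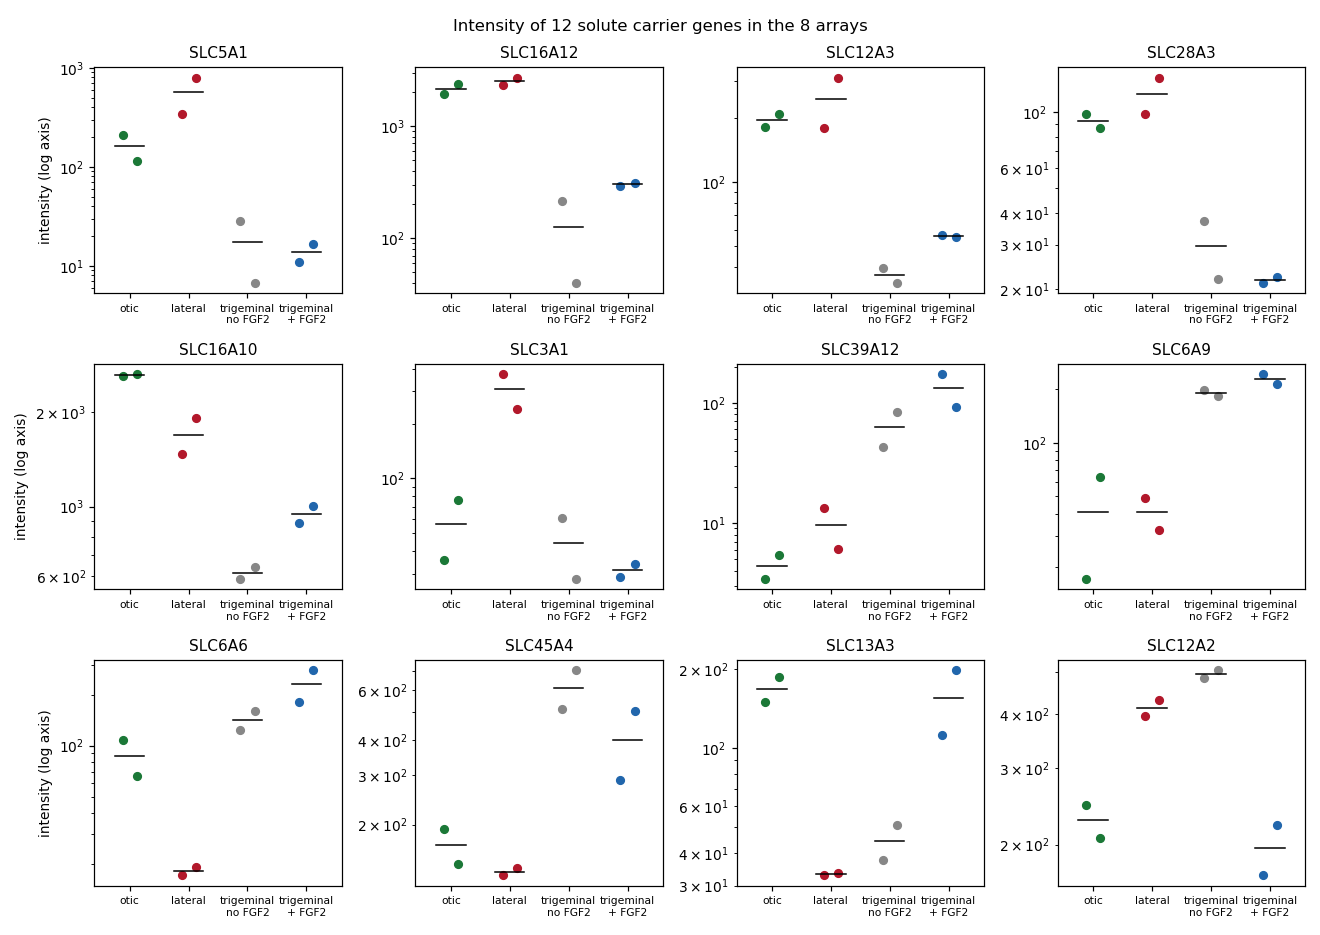
Intensity (log axis, arbitrary units) of 12 carrier genes on each of the 8 arrays, with 1 point per array and a line at the mean of the 2 arrays of a group. SLC5A1, SLC16A12, SLC12A3, SLC28A3 and SLC16A10 are higher on all fresh arrays than on any cultured array, and SLC39A12, SLC6A9 and SLC45A4 are lower on them.

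Lactate and other monocarboxylates cross the membrane by carriers of the SLC16 family. SLC16A3 encodes MCT4, which exports lactate from glycolytic cells. Its intensities were 384 and 533 in otic ectoderm, 179 and 246 in lateral ectoderm, 774 and 843 in trigeminal ectoderm without FGF2 and 1654 and 1796 with FGF2. The 4 groups did not overlap, and their levels were ordered lateral, otic, untreated culture and culture with FGF2. It was called in all 3 comparisons, with a log2 difference of 1.11 (SE 0.36, adjusted p = 0.5) for otic minus lateral, a log2 difference of 1.09 (SE 0.36, adjusted p = 0.81) for FGF2 and a log2 difference of 1.94 (SE 0.26, adjusted p = 0.049) for culture. The otic call was lost under both other scalings (0.92 each) and without lateral replicate 1 (0.88) or otic replicate 2 (0.87). The FGF2 call was lost after quantile normalization (0.92) and without any 1 of the 4 cultured arrays (1.03 to 1.15), and the culture adjusted p ranged from 0.0014 to 0.20 over the alternatives. A dim second probe set of SLC16A3 moved little in culture.

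MCT1, encoded by SLC16A1, takes lactate and pyruvate in either direction. It stood at 5857 and 6399 in otic ectoderm, 3362 and 3399.9 in lateral ectoderm, 3526 and 2629.8 in trigeminal ectoderm without FGF2 and 5040.2 and 5809 with FGF2. Otic and FGF2-treated ectoderm were the high groups, and no other group reached them. Both differences missed the 2-fold limit, at 0.86 (SE 0.34) for otic minus lateral and 0.83 (SE 0.34) for FGF2. Another, dimmer probe set, the one in the study's otic table, gave 1.21 for otic minus lateral, with 409 and 250.2 in otic against 173 and 111 in lateral arrays.

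Genes of the hypoxia response, among them enzymes of sugar breakdown, were followed as a fixed list of 16, of which 4 were called higher and 1 lower in culture. Of all genes, 5.37% were called higher and 4.47% lower there. LDHA, which makes lactate from pyruvate, stood at 244 and 428 in otic ectoderm, 404 and 352 in lateral ectoderm, 5672 and 4837 in trigeminal ectoderm without FGF2 and 8303 and 6265 with FGF2. Cultured and fresh arrays were far apart, with a log2 difference of 4.14 (SE 0.29, adjusted p = 0.015). PFKFB3, which drives glycolysis through fructose 2,6-bisphosphate, was at 247 and 159.6 in otic ectoderm, 41.5 and 35.2 in lateral ectoderm, 544 and 349 in trigeminal ectoderm without FGF2 and 914 and 1147 with FGF2, a log2 difference of 2.94 (SE 0.29, adjusted p = 0.028). Of the other listed genes P4HA1 and CA9 were also called higher (1.17 and 1.09), ADM was lower (−3.02), and the median over the list was 0.13. The listed enzyme genes ENO1, HK2, PDK1 and PDK3 were not called, with culture differences of 0.12, −0.15, −0.18 and −0.04. EGLN1, EGLN3 and P4HA2 were higher by 0.77, 0.73 and 0.83, also without a call. The enzyme genes of the list thus varied in size and sign, and whether they share a response was not tested. Genes that respond to hypoxia also include SLC2A1 and SLC16A3, whose values are given above.

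**Figure D4:**
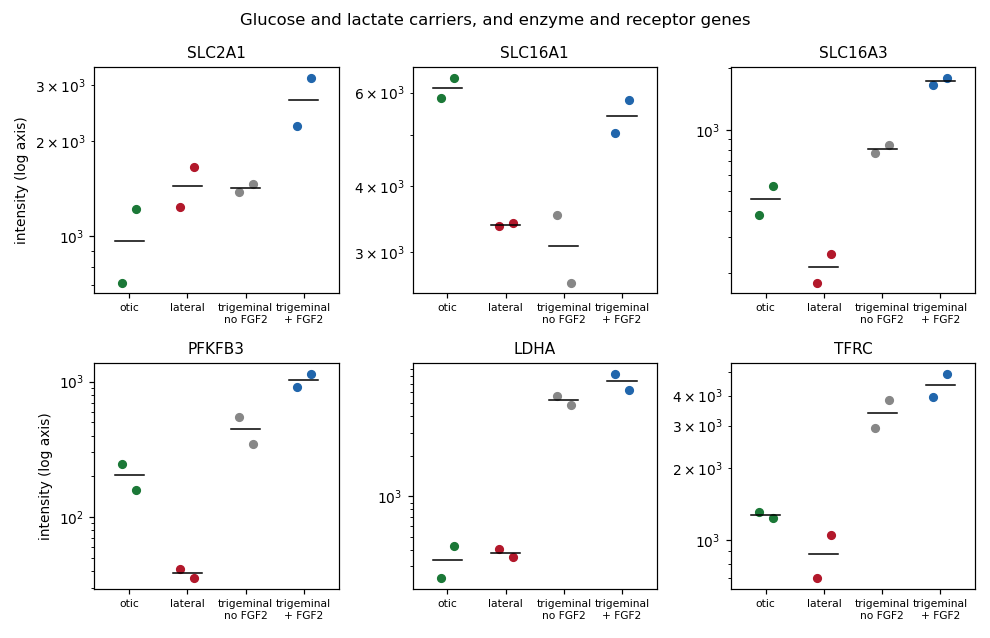
Intensity (log axis, arbitrary units) of the glucose carrier SLC2A1, the lactate carriers SLC16A1 and SLC16A3, the enzyme genes PFKFB3 and LDHA and the transferrin receptor gene TFRC on each of the 8 arrays, with a line at the mean of the 2 arrays of a group. SLC16A3 ranges from 179 in lateral ectoderm to 1796 with FGF2, and LDHA from 244 to 428 on the fresh arrays and 4837 to 8303 on the cultured arrays. PFKFB3 and LDHA are among the 4 of 16 listed hypoxia genes that were called higher in culture, where 5.37% of all genes were.

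Of the remaining carboxylate carriers, SLC16A12, a creatine carrier, was called lower in culture, with a difference next in size to that of SLC5A1, and larger than it with an offset of 32 (−3.47 against −2.78). It was at 1922 and 2381 in otic ectoderm, 2308 and 2703 in lateral ectoderm, 214 and 39.9 in trigeminal ectoderm without FGF2 and 294 and 312 with FGF2. Fresh and cultured arrays did not overlap. The difference was a log2 difference of −3.79 (SE 0.53, adjusted p = 0.053), and its 2 dimmer probe sets were also lower. Untreated replicate 2 stood apart at 39.9, and the culture difference was −3.18 without it and −4.39 without untreated replicate 1. With FGF2 the difference was 1.71 (adjusted p = 0.98), not called, and it was 0.50 without untreated replicate 2 and 2.92 without untreated replicate 1. SLC16A9, its neighbor by sequence family and a carnitine carrier in human, was at 595 to 775 in fresh and 239 to 448 in cultured arrays, a log2 difference of −0.997 that was not called.

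SLC13A3, which takes up succinate and other dicarboxylates with sodium, was shared by otic ectoderm and FGF2 treatment. Its intensities were 149.5 and 186 in otic ectoderm, 32.8 and 33.5 in lateral ectoderm, 37.7 and 50.8 in trigeminal ectoderm without FGF2 and 113 and 198 with FGF2. The otic and FGF2 pairs covered the same range, and the lateral and untreated pairs lay below both. It was higher in otic ectoderm by a log2 difference of 2.33 (SE 0.41, adjusted p = 0.22) and with FGF2 by a log2 difference of 1.77 (SE 0.41, adjusted p = 0.5). It was the only 1 of the 7 members called in the FGF2 comparison whose call was kept under every alternative tried. SLC16A8, which encodes the lactate carrier MCT3 of the pigment epithelium of the eye, was below the level limit in every group, with 0.8 to 2.9 in fresh and 7.8 to 24.2 in cultured arrays. It passed the adjusted threshold in culture (3.30), and values so near the floor leave the size uncertain.

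Of 23 ion carriers among the members, 17 stayed within 1.5-fold in the otic and FGF2 comparisons and 16 in the culture comparison, where 70.4%, 84.2% and 75.9% of the genes at the level limit did. SLC12A3, the thiazide-sensitive sodium-chloride cotransporter of the kidney, was at 183 and 209.5 in otic ectoderm, 181 and 311 in lateral ectoderm, 39.4 and 33.7 in trigeminal ectoderm without FGF2 and 56.5 and 55.4 with FGF2. All 4 cultured values were far below the lowest fresh one. The difference was a log2 difference of −2.26 (SE 0.27, adjusted p = 0.042). Its adjusted p ranged from 0.0027 to 0.19 over the alternatives, and its 2 dim probe sets did not show the fall (−0.25 and −0.57). SLC34A2, a sodium-phosphate cotransporter of epithelia, was at 60 to 184 in fresh and 32.5 to 54.8 in cultured arrays. The difference of −1.40 was −0.99 without lateral replicate 2, which ended the call, as did an offset of 32 (−0.95).

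SLC12A2, which encodes NKCC1, the sodium-potassium-chloride cotransporter that later loads the endolymph of the ear with potassium, was lower with FGF2. It stood at 247 and 208 in otic ectoderm, 395 and 430 in lateral ectoderm, 482 and 504 in trigeminal ectoderm without FGF2 and 169.9 and 222 with FGF2. Both FGF2 values lay far below both untreated values. The difference was a log2 difference of −1.34 (SE 0.34, adjusted p = 0.58), and the call was lost only without FGF2 replicate 1 (−1.15). In fresh tissue the otic pair was also below the lateral pair, by −0.86, which became −1.03 after quantile normalization and was then called. SLC4A3, an anion exchanger, was at 65.7 and 45.8 in otic and 21.4 and 17.1 in lateral ectoderm, a log2 difference of 1.52 (SE 0.37, adjusted p = 0.35) that was 0.77 with an offset of 32. SLC24A2, a calcium-potassium-sodium exchanger of neurons and cones, was called higher in culture (1.31). That call was lost with the offset (0.76) and without otic replicate 2 (0.89), lateral replicate 2 (1.07), FGF2 replicate 1 (1.22) or either untreated array (1.24 and 1.38).

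Bicarbonate and proton carriers such as SLC4A7 (748 to 2085 over the arrays) and SLC9A8 (379.9 to 806) were not called in any comparison. The sodium pump sets the gradient that most of these carriers use. Of 11 listed genes of its subunits and regulators, 5 are on the array (ATP1B1, ATP1B3, ATP1B4, FXYD2 and FXYD6), and none was called in any comparison. No catalytic alpha subunit is among them, though probe sets with no symbol or several symbols may hold one. ATP1B4 was near the floor at 0.6 to 10. Whether the pump itself differed was therefore not tested. ATP1B1, a beta subunit, was at 978 to 2509 in fresh and 1991 to 3032 in cultured arrays.

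SLC39A12, which encodes the zinc importer ZIP12 of brain, was called higher in culture. It stood at 3.4 and 5.4 in otic ectoderm, 13.2 and 6.1 in lateral ectoderm, 42.6 and 83.9 in trigeminal ectoderm without FGF2 and 174 and 91.5 with FGF2. Fresh values did not exceed 13.2, under the array medians, and all cultured values were above the medians. The log2 difference was 3.81 (SE 0.43, adjusted p = 0.038) and 1.65 with an offset of 32. It is the largest positive culture difference among the members without the offset, but with it those of SLC16A3 (1.82) and SLC6A9 (1.77) are larger. Its adjusted p ranged from 0.0047 to 0.16 over the alternatives. All 4 further probe sets were higher in culture. Of 9 markers of the neural tube, where ZIP12 is known to act in frog embryos, 4 were called higher in the same arrays. These were ZIC1, ZIC2, PAX6 and HES5, while SOX1, SOX3, OLIG2, NKX6-1 and NES were not called. The summed intensity of the 9 was 1553 to 6516 in fresh and 9309 to 13785 in cultured arrays. PAX6 alone was at 13.4 to 44.3 in fresh and 1672 to 4169 in cultured arrays. The part of neural tube cells in the SLC39A12 value was not tested.

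SLC30A10, a manganese exporter, was lower in otic than lateral ectoderm, lower with FGF2 and lower in culture. Its values were 11.4 and 22.2 in otic ectoderm, 71.7 and 67.1 in lateral ectoderm, 23.6 and 18.3 in trigeminal ectoderm without FGF2 and 2.6 and 6.6 with FGF2. Only lateral ectoderm stood above the array medians. Fresh and cultured ranges overlap, since the untreated cultures stood near the otic values. The culture difference comes from the high lateral and the low FGF2 values. The 3 differences were −2.12, −2.33 and −1.84, and with an offset of 32 only the otic one (−1.06) stayed past the fold limit. The otic call was lost without otic replicate 1 (−1.64), and the FGF2 difference was −1.65 without FGF2 replicate 1 and −3.00 without FGF2 replicate 2.

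The copper carrier genes differed from each other. SLC31A1, the main copper importer, was at 1564 and 2086 in otic ectoderm, 2035 and 1626 in lateral ectoderm, 1088 and 1151 in trigeminal ectoderm without FGF2 and 1499 and 1528 with FGF2, with no call. SLC31A2, a relative found on internal membranes, was at 75.3 and 95.3 in otic ectoderm, 71.6 and 73.2 in lateral ectoderm, 12.7 and 18.5 in trigeminal ectoderm without FGF2 and 70.1 and 24.6 with FGF2. FGF2 replicate 1 stood with the fresh arrays and the other cultured values lay far below. It was called lower in culture (−1.63, and −0.88 with an offset of 32) and higher with FGF2 (1.44). Without FGF2 replicate 1 the FGF2 difference was 0.68 and without FGF2 replicate 2 it was 2.19. That call was lost without any 1 array other than FGF2 replicate 2, with 1.17 and 1.71 without untreated replicates 1 and 2, and with the offset (0.68).

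Both magnesium carrier genes called were lower in otic than in lateral ectoderm. SLC41A3 was at 258 and 288 in otic ectoderm, 662 and 656 in lateral ectoderm, 215 and 232 in trigeminal ectoderm without FGF2 and 241 and 302 with FGF2. The lateral pair stood alone above the 6 other arrays, with a log2 difference of −1.27 (SE 0.33, adjusted p = 0.39) that held under every alternative. SLC41A2 was at 55.5 and 75.7 in otic ectoderm, 124 and 277 in lateral ectoderm, 233 and 254 in trigeminal ectoderm without FGF2 and 236 and 263 with FGF2. The otic pair was the low one here, with a log2 difference of −1.51 (SE 0.47, adjusted p = 0.47) against lateral ectoderm, and the cultured arrays were higher than the fresh ones by 1.17 although lateral replicate 2 lay above them. The otic call was lost without lateral replicate 2 (−0.93) or otic replicate 1 (−1.29), and the culture call without lateral replicate 1 (0.88) or with an offset of 32 (0.93).

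Zinc carriers of internal membranes such as SLC30A5 (1723 to 2257 over the arrays) and SLC39A9 (1172 to 1663) were not called in any comparison. Other genes of metal handling were followed as a list of 17, of which 3 were called higher and 4 lower in culture. Of all genes, 5.37% were called higher and 4.47% lower there. The transferrin gene TF stood at 114 and 256 in otic ectoderm, 540.3 and 300.5 in lateral ectoderm, 8089 and 6744 in trigeminal ectoderm without FGF2 and 4756 and 5947 with FGF2, with no overlap and a log2 difference of 4.58 (SE 0.37, adjusted p = 0.017). TFRC, the transferrin receptor, was at 1314 and 1234 in otic ectoderm, 695 and 1054 in lateral ectoderm, 2933 and 3841 in trigeminal ectoderm without FGF2 and 3938 and 4937 with FGF2, a log2 difference of 1.88 (SE 0.27, adjusted p = 0.055). The copper exporter gene ATP7B was the third higher gene, and the lower ones were MT4, CP, STEAP2 and CYBRD1.

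**Figure D5:**
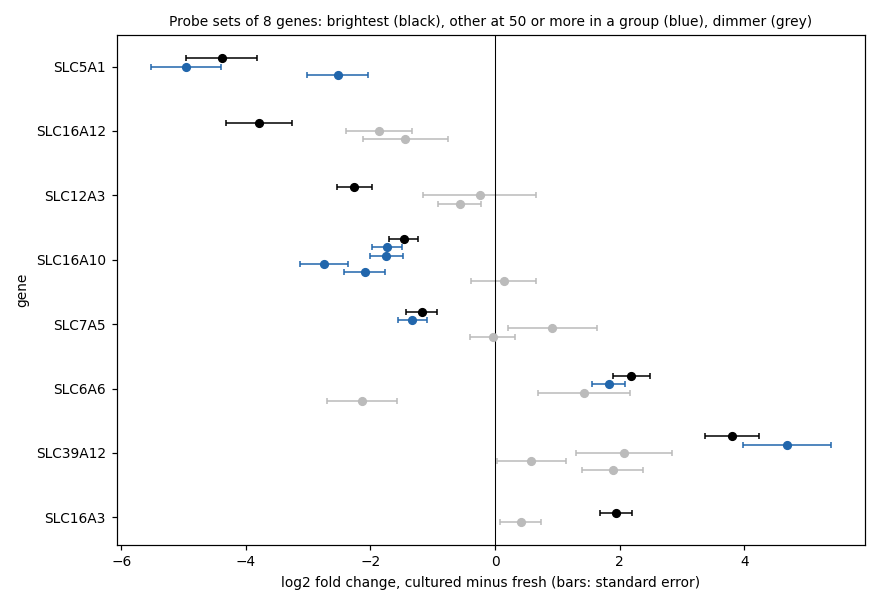
Log2 fold change of cultured minus fresh arrays (linear axis, bars 1 standard error) for every probe set of 8 carrier genes, with the brightest in black, others at 50 or more in a group in blue and dimmer ones in grey. All 3 probe sets of SLC5A1 lie between −4.97 and −2.52 and all 5 bright ones of SLC16A10 between −2.75 and −1.47, whereas the dim probe sets of SLC12A3, SLC7A5 and SLC6A6 do not follow the bright ones.

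Of 29 mitochondrial carriers among the members, 22 stayed within 1.5-fold in the otic, 25 in the FGF2 and 23 in the culture comparison, against the same 70.4%, 84.2% and 75.9% of genes at the level limit. The ADP/ATP carrier gene SLC25A6 ranged only from 13911 to 15835 over the 8 arrays and the phosphate carrier gene SLC25A3 from 11304.5 to 13490. A second ADP/ATP carrier, SLC25A4, known as the form of heart and muscle, did differ, with intensities of 2415 and 2078 in otic ectoderm, 1972 and 2585 in lateral ectoderm, 1164 and 951 in trigeminal ectoderm without FGF2 and 1146 and 1066 with FGF2. Fresh values were above cultured values with no overlap, a log2 difference of −1.06 (SE 0.24, adjusted p = 0.15). The call was lost without lateral replicate 2 (−0.96) or untreated replicate 2 (−0.99). The heart field sum moved the same way (3992 to 10029 in fresh and 1044 to 1495 in cultured arrays). Most of the fresh sums came from TNNT2 alone, at 2899 to 7222 in fresh and 209 to 497 in cultured arrays. Of the 7 markers, 3 were called lower in culture and 0 higher. The part of heart field cells in the SLC25A4 value was not tested. SLC25A12, an aspartate-glutamate exchanger, went the other way, from 137 to 217 in fresh to 294 to 325 in cultured arrays, a difference of 0.96 just under the fold limit.

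In fresh tissue SLC25A37, the mitoferrin that imports iron, was higher in otic (402 and 392) than in lateral ectoderm (146 and 235). Cultured arrays, at 505 and 372 and 583 and 637, were nearer the otic values. The difference was a log2 difference of 1.10 (SE 0.39, adjusted p = 0.53). SLC25A36, a pyrimidine nucleotide carrier, was lower in otic (766 and 772) than in lateral ectoderm (2323 and 1266), by a log2 difference of −1.16 (SE 0.41, adjusted p = 0.53). That of SLC25A37 was lost under both other scalings (0.91 and 0.90), with an offset of 32 (0.98) and without either otic array (1.08 and 1.12), lateral replicate 1 (0.76) or either FGF2 array. That of SLC25A36 was lost without either otic array (−1.15 and −1.16), lateral replicate 1 (−0.72) or either FGF2 array. Leaving out an FGF2 array does not touch these differences and changes only the shared estimate of the spread.

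Nucleoside carriers differed by type. SLC29A1, the facilitative carrier ENT1, was more intense in otic tissue. It stood at 326 and 417 in otic ectoderm, 115 and 123 in lateral ectoderm, 131 and 287 in trigeminal ectoderm without FGF2 and 360.5 and 299 with FGF2. The lateral pair was lowest and did not overlap the otic pair. The difference was a log2 difference of 1.63 (SE 0.46, adjusted p = 0.42), and the call was lost without otic replicate 2 (1.45). SLC28A3, a sodium-coupled nucleoside carrier, was at 98.6 and 86.1 in otic ectoderm, 98.6 and 136 in lateral ectoderm, 37.2 and 22 in trigeminal ectoderm without FGF2 and 21.2 and 22.3 with FGF2. Fresh and cultured values did not overlap, with a log2 difference of −2.05 (SE 0.29, adjusted p = 0.052), whose adjusted p ranged from 0.009 to 0.21 over the alternatives. Of 19 carriers of nucleosides, vitamins and choline, these were the only calls, 1 higher in otic ectoderm and 1 lower in culture, where 4.94% and 4.47% of all genes were called in those directions.

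SLC44A5, of the choline carrier-like family, was uneven between replicates, at 868 and 337 in otic and 122 and 305 in lateral ectoderm. The otic difference of 1.49 was not called (adjusted p = 0.61), and it ranged from 0.81 without otic replicate 1 to 2.17 without otic replicate 2. The folate carrier gene SLC19A1 (371 to 806 over the arrays) and the choline carrier gene SLC44A1 (339 to 582) were not called in any comparison. The acidic sugar nucleotide carrier gene SLC35A1 (754 to 1425) and the related SLC35A4 (542 to 894) were not called either.

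Among the 17 members that carry other organic solutes, SLC27A4, which takes up long-chain fatty acids, was called higher with FGF2. It stood at 1326 and 571 in otic ectoderm, 585 and 841 in lateral ectoderm, 597 and 356 in trigeminal ectoderm without FGF2 and 1017 and 1300.5 with FGF2. The FGF2 pair was above the untreated pair, and otic replicate 1 was as high as either. The difference was 1.32, and the call was lost after quantile normalization (1.17), after median centring (1.26), and without FGF2 replicate 1 (1.497), FGF2 replicate 2 (1.14), untreated replicate 2 (0.95) or either lateral array. SLC6A2, the noradrenaline carrier, was called higher in culture (1.20), but untreated replicate 2 stood at 193 against 43.6 to 68.4 on the other cultured arrays, and it was named after its values were seen. The carnitine carrier gene SLC22A5 (1616 to 3184 over the arrays) and the acetyl-CoA carrier gene SLC33A1 (646 to 1260) were not called in any comparison.

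Over the members named by rule that had a call, 5 of 14 otic calls, 1 of 7 FGF2 calls and 13 of 23 culture calls were kept under every alternative tried. SLC2A14 and SLC6A2, also called in culture but named after their values were seen, are not among the 23. Where a called member had further probe sets at the level limit, all had the same sign as the brightest one, for 5 of 5 genes in otic, 1 of 1 in FGF2 and 7 of 7 in the culture comparison. Dimmer probe sets are not in these counts. In culture a dim probe set of SLC6A6 had the opposite sign, and dim probe sets of SLC12A3, SLC7A5 and SLC16A3 did not follow the brightest. The same share was not counted over all called genes.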

How the data were processed

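Affymetrix GeneChip Chicken Genome arrays, 2 for each of 4 groups, measured amplified RNA. The authors deposited 1 linear intensity per probe set and array. The sources used here do not say how probes were summarised, corrected for background and scaled. Medians of the arrays differ. The submitters' processing notes name limma. The table holds 38535 probe sets, and the 96 controls were left out. The platform annotation gives 1 gene symbol for 27168 of the other 38439, several for 177 and none for 11094. A gene was counted as on the array only when a probe set had its symbol alone, so the array may hold more of the listed genes. Of the 249 carrier symbols, 245 were unchanged in the current RefSeq table and 4 had gene IDs that it does not list.

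Values under 1 were set to 1, the log2 was taken, and lmFit and eBayes of limma 3.58.1 (R 4.3.3) were fitted with 1 mean for each group and all 8 arrays, leaving 4 residual degrees of freedom. Two-sided p-values were adjusted by Benjamini-Hochberg over all probe sets. No source says that the 2 pools of a group came from separate days, so p-values measure the spread between pools. The number of arrays limits the precision. Members, lists and tests were chosen with earlier results of these data known.

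Up to 10 members per direction and comparison with a call and no overlap between groups were named, with the 12 of smallest p in the F test, the 2 brightest of each of 9 substrate classes, carriers in the study's tables and those nearest the level limit. The alternatives were quantile normalization, median centring, an offset of 32, leaving out the dimmest 40% of probe sets, a prior variance that follows the intensity, a fit of the 4 arrays of a comparison, any probe set of a gene, the replicate number as a block, and each array left out in turn. The procedure was tested on simulated data. Python 3.11.15 with pandas 2.3.3 and matplotlib 3.10.9 made the summaries and figures. No sequences were used.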

Additional observations from a re-analysis of the deposited data

How the results depend on the processing

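Of 74 named differences that were called or larger than 0.6 on the log2 scale, none changed sign in the brightest probe set of the gene under the other fits tried. These differences were chosen for being large, so a change of sign was unlikely and the count says little about their stability. Further probe sets can differ in sign, as a dim one of SLC6A6 did in culture. Quantile normalization turned the sign of smaller differences, in 24 of 155 members for otic minus lateral, 21 for FGF2 and 2 for culture, with sizes of up to 0.19, 0.20 and 0.019. The otic counts of 12 higher and 8 lower carriers became 6 and 13 with median centring or quantile normalization, 6 higher with an offset of 32, and 20 and 20 when any probe set of a gene could be called, and ranged from 8 to 17 and from 6 to 14 with 1 array left out. The FGF2 counts of 6 and 3 became 3 higher after quantile normalization, 1 lower with the offset, and 13 and 10 with any probe set, and ranged from 2 to 11 and from 3 to 9 with 1 array left out. The culture counts of 15 and 14 became 6 and 8 with the offset and 30 lower with any probe set, and ranged from 11 to 17 and from 12 to 20 with 1 array left out.

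At an adjusted p under 0.05, the culture counts of 3 higher and 2 lower became 5 and 9 without the dimmest 40% of probe sets, 8 and 11 with the intensity-dependent prior, 7 and 14 with the offset, 4 lower with median centring, and 0 higher and 0 to 1 lower with 1 array left out, where fewer arrays remain. In the F test, 10, 12 and 10 carriers passed without the dimmest probe sets, with that prior and with the offset, against 0 otherwise. The cause of these differences was not tested.

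Arrays of the same replicate number did not deviate together (correlations of −0.10 to 0.092 between groups), so the numbers were not taken as pairs. With the replicate number as a block the otic counts were 12 and 10, the FGF2 counts 4 and 4 and the culture counts 16 and 13, the culture counts at an adjusted p under 0.05 were 0 and 0, and SLC31A2 and SLC27A4 (FGF2) and SLC5A10 (culture) were among the calls lost. The small number of arrays and values near or under the array medians limit what can be told apart.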
